A study of Rattus norvegicus with 6 samples.

Results

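The mitochondrial genome contributed 37 of the 32883 genes in the small RNA count table of rat INS-1 lines. These are the rows whose symbol begins with Mt- or AY172581, and the choice used no measured value. Of them, 13 carry Mt- symbols and encode proteins. The other 24 carry numbers under AY172581, the mitochondrial sequence record, and their transfer RNA or ribosomal RNA names are not given in the sources used here, so they are called by number and no role is assigned to any single one. The tables give Ensembl identifiers but no positions or lengths, so reads are not compared between genes as amounts of transcript.

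INS-1 is an insulin-secreting line from a rat insulinoma. The lines here come from its 832/13 derivative with a human insulin transgene and a mouse Ins2 transgene that carries an mCherry reporter. Each library came from 1 clonal line grown in 7.5 mM glucose without further treatment, 3 lines per group. The Control lines (5-9, 2 and 16) lack the imprinted Prader-Willi syndrome (PWS) domain on the silent maternal chromosome only, and the PWS lines (3, 19-1 and 19-4) lack it on both chromosomes, so the maternal deletion is common to all 6. Lines 2, 16, 3 and the parent of 19-1 and 19-4 were derived from line 5-9, and 19-1 and 19-4 are subclones of the same edited line, which leaves fewer independent editing events than lines in the PWS group.

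The mammalian mitochondrial genome is a small circle that is transcribed from both strands into long precursors. Transfer RNAs lie between most of the other genes, and their excision at both ends frees the messenger and ribosomal RNAs. The encoded proteins are core subunits of respiratory complexes I, III and IV and of ATP synthase, the machinery whose ATP output couples glucose metabolism to insulin release in β-cells. The library kit is one for microRNAs, adapted to small RNAs below 200 nt per the labels and to library fragments up to that length per the methods. Messenger RNAs longer than this limit can appear only as fragments, so the values below are amounts of small RNA reads and not of full transcripts.

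Depth ran from 7373691 reads in line 19-4 to 16480475 in line 3, with reads of overlapping genes counted more than once. Snord116, which lies in the deleted domain, had 4251 to 10516 reads per Control line and 2 to 3 per PWS line. Of the β-cell markers, Mir375 was read at 558022 to 833397 normalized reads, and Ins1, Pdx1 and Nkx6-1 fragments were present in all 6 libraries, while Ins2 had no read in line 19-4 and Mafa was read in line 3 only. Of the marker genes of α-cells, δ-cells and acinar cells, Gcg, Sst, Hhex, Prss1, Cpa1 and Cela1 were at 0 in every library. The stromal markers Col1a1 and Mir145 were at 0 too, while the stromal Mir143 had 13.1 to 48.8 normalized reads, the endothelial Mir126a 13.9 to 35.6 and the leukocyte Mir142 43.1 to 75.1. The other leukocyte markers, Ptprc and Mir223, were at 0 in 5 and 4 of the 6 libraries and reached at most 3.92 normalized reads. Here a normalized read is a read count divided by the size factor of its library, as the authors deposited it.

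All 37 mitochondrial rows had reads in all 6 libraries. Together they made up 0.870% of all reads in line 5-9, 0.990% in line 2 and 1.01% in line 16. In the PWS lines the share was 0.882% in line 3, 0.922% in line 19-1 and 1.41% in line 19-4. The groups overlapped, and line 19-4 stood alone at the top. The mean was 0.955% ± 0.0747 in Control and 1.07% ± 0.295 in PWS lines (SD, n = 3 each), a difference of 0.117 percentage points that was smaller than the spread among PWS lines. Without line 19-4 the PWS mean was 0.902% and the difference turned to -0.0535 percentage points. In libraries of pooled cells, the number of mitochondria, the transcripts per mitochondrion and the yield of small fragments cannot be told apart.

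**Figure D1:**
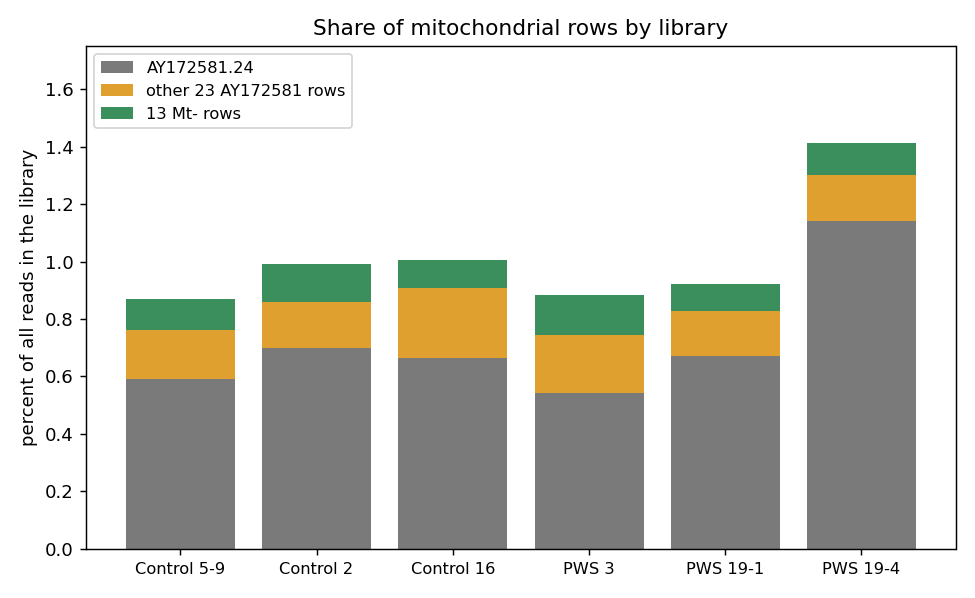
Stacked bars give the percent of all reads in each library (vertical axis) that fell in AY172581.24 (grey), in the other 23 AY172581 rows (orange) and in the 13 Mt- rows (green), for 3 Control and 3 PWS lines (horizontal axis). The bar of PWS line 19-4 reached 1.41%, and its excess over the other lines lay in the grey part.

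The high share of line 19-4 lay in 1 row. AY172581.24 (ENSRNOG00000043866) took 68.2%, 70.6% and 65.9% of the mitochondrial reads in Control lines 5-9, 2 and 16, and 61.6%, 72.9% and 80.7% in PWS lines 3, 19-1 and 19-4. In normalized reads it stood at 69020, 69697 and 70991 in the Control lines, the highest exceeding the lowest by a factor of 1.03. The PWS lines held 53203, 71903 and 110809, a 2.08-fold range. The PWS values thus lay both below and above all Control values. Counting error was small at this depth: the 84052 reads of line 19-4 carry an exact 95% Poisson interval of 83485 to 84622, which covers counting error only. The subclones 19-1 and 19-4, which share their edits, differed 1.54-fold. On the scale of log2(normalized reads + 1), limma put PWS minus Control, the log2 fold change, at 0.10 ± 0.24 (SE) with an adjusted p of 0.956. Without line 19-4 it became -0.18.

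With AY172581.24 set aside, a step taken after its values were seen, the remaining 36 rows held 32252, 29088 and 36738 normalized reads in Control lines 5-9, 2 and 16. For PWS lines 3, 19-1 and 19-4 the sums were 33114, 26791 and 26485. In normalized reads line 19-4, the highest library with that row, was the lowest without it, close to line 19-1. As a share of all reads line 19-1 was the lowest without that row, at 0.250% against 0.272% in line 19-4. The mean was 32693 ± 3844 in Control and 28797 ± 3742 in PWS lines (SD, n = 3 each), and the groups overlapped.

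The other 23 numbered rows ranged from a mean of 26.7 normalized reads for AY172581.11 to 6039 for AY172581.9. The strongest of them, AY172581.9 (ENSRNOG00000030478), had 6230, 5464 and 7171 normalized reads in Control lines 5-9, 2 and 16, against 6923, 4955 and 5490 in PWS lines 3, 19-1 and 19-4. Its lines interleaved, and its log2 fold change was -0.12 ± 0.23 (SE). That value was -0.02 without line 19-1, -0.03 without line 16 and -0.26 without line 3.

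AY172581.15 (ENSRNOG00000032274) had 4399, 3270 and 9168 normalized reads in the Control and 4882, 4613 and 3802 in the PWS lines, in the same order of lines. Control line 16 stood apart, at 2.80 times line 2, while the PWS lines lay within a factor of 1.28. The log2 fold change of -0.21 ± 0.31 (SE) rested on line 16 and became 0.22 without it. AY172581.18 (ENSRNOG00000032609) had the same shape. Its Control lines held 932, 609 and 1675 normalized reads and its PWS lines 1018, 955 and 879, and its log2 fold change moved from -0.05 to 0.33 without line 16.

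AY172581.14 (ENSRNOG00000032112) was the strongest numbered row whose groups did not overlap. It held 2269, 2128 and 1807 normalized reads in Control lines 5-9, 2 and 16, against 1708, 1656 and 1347 in PWS lines 3, 19-1 and 19-4. The closest lines across the groups, 16 and 3, were separated by less than the range within either group. The log2 fold change of -0.40 ± 0.23 (SE) had an adjusted p of 0.860 in limma.

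The Mt- rows were steadier between lines than the numbered rows. The ratio of the highest to the lowest library had a median of 1.48 over the 13 Mt- rows and of 2.20 over the 24 numbered rows. It exceeded 2 in 15 numbered rows and in none of the Mt- rows. Many numbered rows hold fewer reads, and depth was not matched in this description.

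**Figure D2:**
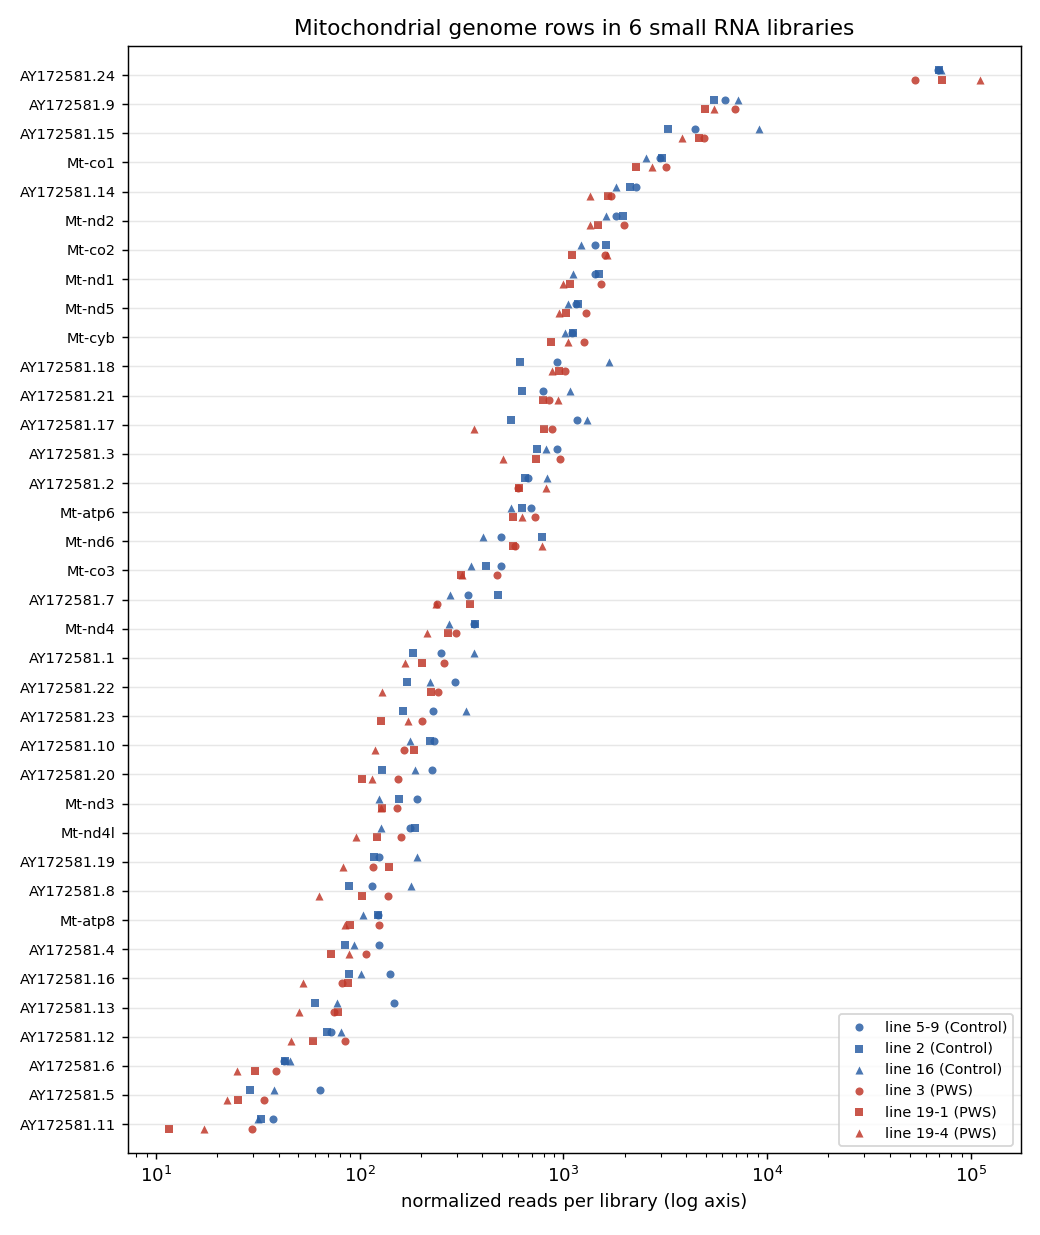
Normalized reads of each mitochondrial row (vertical axis, ordered by the mean of 6 libraries) in each library on a log axis, with Control lines in blue and PWS lines in red. AY172581.24 stood above every other row in all 6 libraries, with a mean of 74270 against 6039 for the next row, and blue and red points overlapped in 33 of 37 rows.

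Together the Mt- rows held 12428, 13085 and 10485 normalized reads in Control lines 5-9, 2 and 16, against 13331, 9888 and 10947 in PWS lines 3, 19-1 and 19-4. The mean was 11999 ± 1352 in Control and 11389 ± 1763 in PWS lines (SD, n = 3 each), and the highest and the lowest library were both PWS lines. Set against fragments of nuclear messenger RNAs, the Mt- rows amounted to 12.1%, 13.0% and 10.7% of the reads of nuclear protein-coding genes in Control lines and to 13.1%, 9.44% and 11.1% in PWS lines. These percentages depend on the counting option: in the second table of the authors, which leaves out ambiguous reads, they were 21.3%, 22.1% and 17.2% in Control and 22.1%, 16.5% and 16.0% in PWS lines. The share of all reads that fell in those nuclear genes was 0.884% to 1.01% in Control and 0.978% to 1.04% in PWS lines. Without ambiguous reads it was 0.491% to 0.582% in Control and 0.548% to 0.696% in PWS lines. Its part in the mitochondrial values was not tested.

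Complex I, which oxidises NADH, is represented by 7 subunit genes (Mt-nd1 to Mt-nd6 and Mt-nd4l). Their summed level was 5484 ± 727 normalized reads in Control and 5057 ± 803 in PWS lines (SD, n = 3 each). Mt-nd2 (ENSRNOG00000031033) was the strongest of them, with 1805, 1965 and 1610 normalized reads in Control lines 5-9, 2 and 16, against 1973, 1474 and 1346 in PWS lines 3, 19-1 and 19-4. PWS line 3 was level with the highest Control line, and both subclones were below all 3. Mt-nd1 (ENSRNOG00000030644) followed the same order with 1431, 1501 and 1112 in Control and 1531, 1079 and 991 in PWS lines. Mt-nd5 (ENSRNOG00000029971) had 1149, 1183 and 1049 in Control and 1285, 1033 and 954 in PWS lines, again with line 3 highest and both subclones below all Control lines. Mt-nd4l (ENSRNOG00000031053), whose coding sequence overlaps that of Mt-nd4 in mammals, had 177, 186 and 127 in Control lines and 159, 122 and 96.2 in PWS lines. Mt-nd4 (ENSRNOG00000029707) had 365, 367 and 275 in Control lines and 298, 271 and 215 in PWS lines. Each of these genes had a lower mean in PWS lines and overlapping groups. The log2 fold changes of Mt-nd4l and Mt-nd4 were -0.39 ± 0.30 and -0.36 ± 0.27 (SE), and without line 19-4 they were -0.21 and -0.23. Those of Mt-nd1, Mt-nd2 and Mt-nd3 were -0.18 ± 0.25, -0.18 ± 0.24 and -0.19 ± 0.29, and that of Mt-nd5 was -0.06 ± 0.24 (SE). Without line 19-4 Mt-nd1 and Mt-nd2 were at -0.06 and -0.07, and without line 3 at -0.37 and -0.34. Mt-nd3 was at -0.04 without line 5-9 and at -0.34 without line 16.

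Complex III is represented by cytochrome b. Its gene Mt-cyb (ENSRNOG00000031766) had 1101, 1116 and 1022 normalized reads in the Control and 1257, 873 and 1056 in the PWS lines, a log2 fold change of -0.04 ± 0.24 (SE). The PWS lines enclosed the whole Control range.

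Complex IV, cytochrome c oxidase, has its 3 core subunits encoded here. Mt-co1 (ENSRNOG00000034234), the catalytic subunit and the Mt- row with most reads, had 2969, 3051 and 2540 normalized reads in Control lines 5-9, 2 and 16, against 3170, 2275 and 2718 in PWS lines 3, 19-1 and 19-4. Its share of the Mt- reads hardly varied between libraries, from 23.0% to 24.8%. Mt-co2 (ENSRNOG00000030371) had 1435, 1611 and 1212 in Control and 1600, 1100 and 1628 in PWS lines, so the subclones held both the lowest value and the highest. Summed, complex IV genes stood at 4693 ± 517 in Control and 4532 ± 785 in PWS lines (SD, n = 3 each).

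For ATP synthase, Mt-atp6 (ENSRNOG00000031979) had 695, 629 and 553 normalized reads in the Control and 728, 562 and 625 in the PWS lines. Mt-atp8 (ENSRNOG00000033299), which encodes the small neighbouring subunit, had 123, 123 and 104 in Control lines and 125, 89.3 and 84.4 in PWS lines. Line 3 was the highest library for both genes. The log2 fold changes of 0.03 ± 0.25 and -0.25 ± 0.29 (SE) were within the spread between lines.

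Mt-nd6 of complex I had its own order of lines. This gene (ENSRNOG00000029042) is the sole protein gene transcribed from the opposite strand in mammals. It had 493, 780 and 403 normalized reads in Control lines 5-9, 2 and 16, against 581, 567 and 787 in PWS lines 3, 19-1 and 19-4. Control line 2 and PWS line 19-4 were high and line 16 was low. As a share of all Mt- reads it was 3.97%, 5.96% and 3.84% in Control and 4.36%, 5.74% and 7.19% in PWS lines. Its log2 fold change of 0.25 ± 0.29 (SE) was the highest of the 37 rows, and its adjusted p in limma was 0.904. The value rested on single lines, being 0.039 without line 16, 0.095 without line 19-4 and 0.52 without line 2. Whether the authors counted reads by strand is not given in the sources used here, so reads from the strand opposite to a gene cannot be told apart from its own.

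Libraries differed within each genotype, and with 1 library per line the clonal line, its culture and its library cannot be told apart. Line 19-4 gave the lowest value in 20 of the 37 rows and the highest in 3, and 21 of the 24 numbered rows were below their 6-library mean there. Line 16 gave the highest value in 11 rows, all of them numbered, while all 13 Mt- rows were below their 6-library mean in it. All 13 Mt- rows were also below their mean in line 19-1, and 12 of 13 were at or above it in line 3. Between the subclones, 23 rows were lower in 19-4 than in 19-1 and 14 were higher, with ratios from 0.453 for AY172581.17 to 1.54 for AY172581.24.

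**Figure D3:**
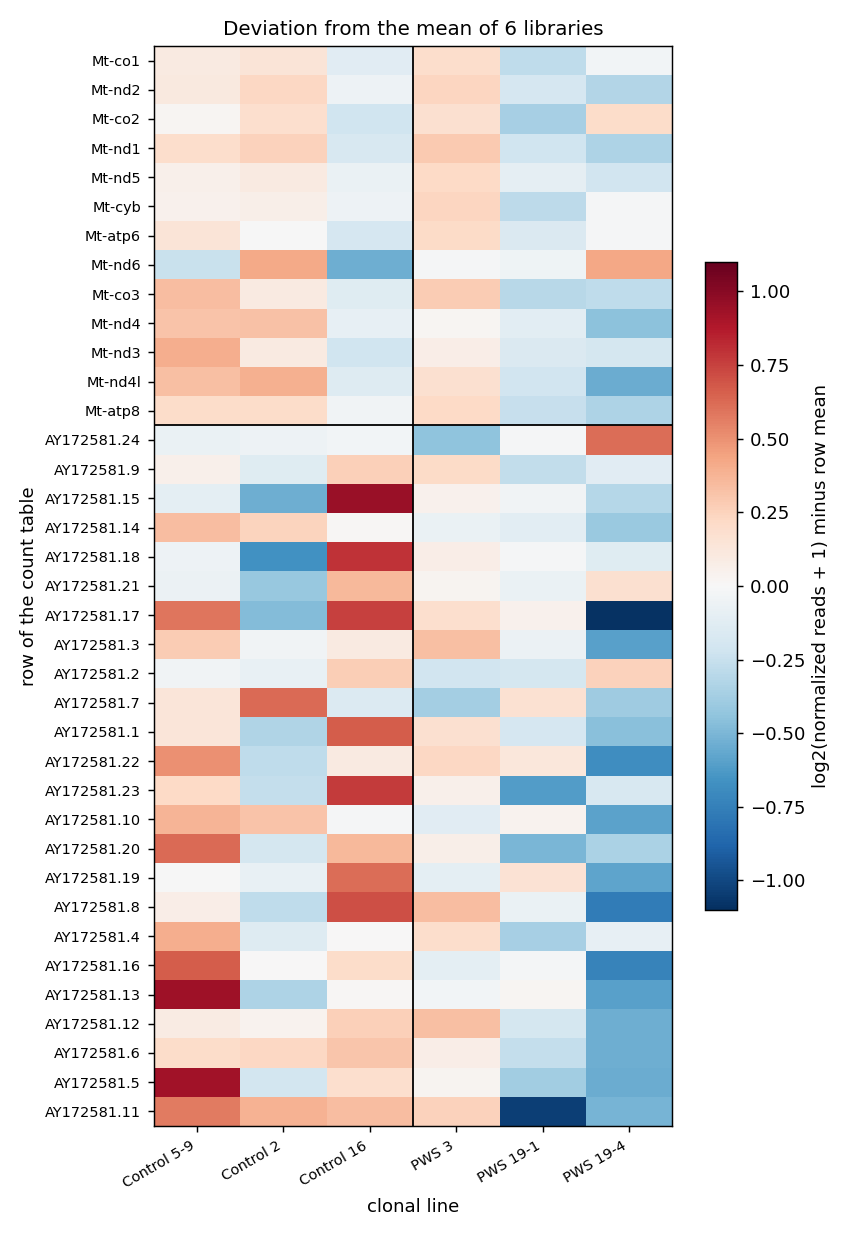
Colour gives log2(normalized reads + 1) minus the mean of the row over 6 libraries, for each row (vertical axis, Mt- rows above the line) and clonal line (horizontal axis). Line 16 was red in many numbered rows and blue in all 13 Mt- rows, and line 19-4 was blue in 21 of 24 numbered rows.

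The small RNA libraries extended the transcriptome comparison of PWS and Control lines to short stable RNAs. All 37 mitochondrial rows passed the filter of a mean of 5 normalized reads, and limma called none of them at an adjusted p under 0.1. Over all 4292 genes tested, 1.28% were called, each of them lower in PWS lines. The lowest adjusted p among the mitochondrial rows was 0.831. At an unadjusted p under 0.05 there was 1 mitochondrial row, lower in PWS lines, against 5.96% of all genes tested in either direction, 3.8% in that direction and 2.17% in the other. On the recovered reads edgeR called 1.37% of all genes and DESeq2 0.651% of those with an adjusted p. Neither called a mitochondrial row or gave one an unadjusted p under 0.05.

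That row was AY172581.11 (ENSRNOG00000031667), the weakest of the 37. It had 37.4, 32.7 and 31.6 normalized reads in Control lines 5-9, 2 and 16, against 29.7, 11.6 and 17.1 in PWS lines 3, 19-1 and 19-4. All PWS lines were below all Control lines, but line 3 was close to line 16. The values of 19-1 and 19-4 rested on 11 and 13 reads, with exact 95% Poisson intervals of 5.49 to 19.7 and 6.92 to 22.2 reads. limma put its log2 fold change at -0.87 ± 0.38 (SE), the unadjusted p at 0.0359 and the adjusted p at 0.831.

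The groups did not overlap in 4 of the 37 mitochondrial rows (10.8%), each with lower values in PWS lines, where 6.29% of all genes tested did so. None lay wholly higher in PWS lines, against 4.87% of all genes tested, and 11.2% of all genes did not overlap in either direction. Beside AY172581.14 and AY172581.11 these were AY172581.16 and AY172581.6. AY172581.16 (ENSRNOG00000032320) had 141, 88.9 and 102 normalized reads in Control and 82.0, 87.2 and 52.7 in PWS lines. AY172581.6 (ENSRNOG00000029677) had 42.4, 43.1 and 45.5 in Control and 38.6, 30.5 and 25.0 in PWS lines. Their log2 fold changes were -0.58 ± 0.32 and -0.49 ± 0.32 (SE). The rows share libraries and are not independent of each other.

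The log2 fold change was below 0 in 32 of the 37 rows, where 49.7% of all genes tested were below 0. The median was -0.23 over the 37 rows, -0.18 over the Mt- rows and -0.34 over the numbered rows. It was 0.0048 over all genes tested and -0.08 over the other genes with means in the range of the mitochondrial rows. The median row was lower than the Control mean by 0.30 in line 19-1 and by 0.46 in line 19-4 on the log2 scale, whereas line 3 was 0.02 above it. The subclones were the lower lines, and the median was -0.14 without line 19-4 and -0.39 without line 3. The 95% intervals of the log2 fold changes had a median half-width of 0.62, so smaller changes could not be resolved with 3 lines per group. In 24 rows the interval lay wholly between -1 and 1.

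**Figure D4:**
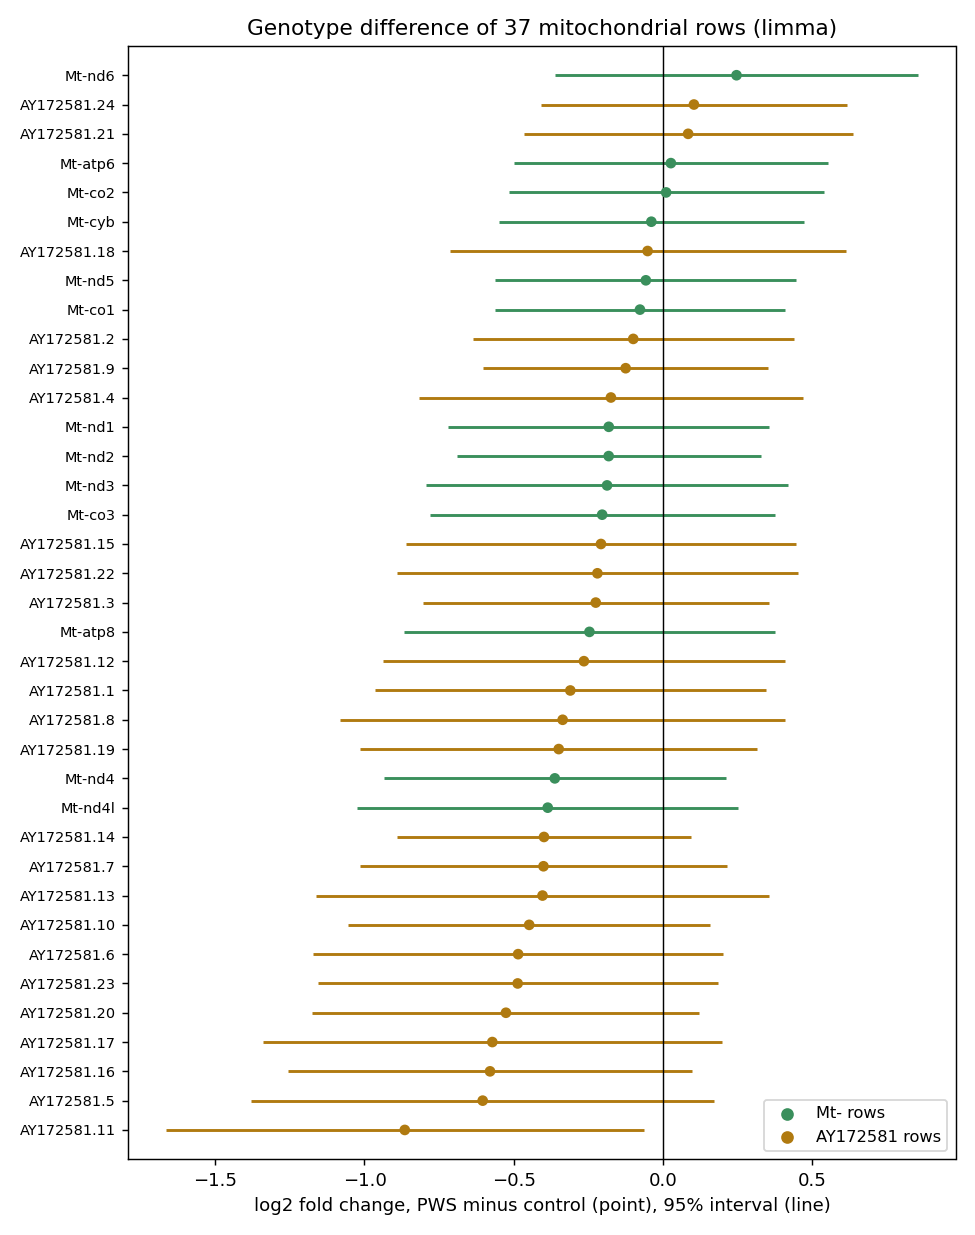
Points give the limma log2 fold change of each row (PWS minus Control, horizontal axis) and lines its 95% interval, with Mt- rows in green and numbered rows in orange, ordered by fold change. The interval crossed 0 in every row except AY172581.11, and 32 of 37 points lay below 0.

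The largest fitted falls after AY172581.11 were in AY172581.5 and AY172581.16, at -0.60 ± 0.37 and -0.58 ± 0.32 (SE). AY172581.5 (ENSRNOG00000029389) had 64.0, 28.8 and 37.8 normalized reads in Control and 33.9, 25.2 and 22.4 in PWS lines, with line 5-9 well above the rest. Single libraries moved these values: without line 5-9 AY172581.5 was at -0.29, without line 19-4 AY172581.16 was at -0.36, and without line 19-1 AY172581.11 was at -0.56. At the other end, after Mt-nd6, AY172581.24 and AY172581.21 had the highest fold changes. AY172581.21 (ENSRNOG00000033545) had 798, 626 and 1073 in Control and 853, 794 and 944 in PWS lines, and its log2 fold change of 0.08 ± 0.26 (SE) became -0.10 without Control line 2.

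The second table leaves out every read that could be given to more than 1 gene, either because genes overlap or because the read aligned in more than 1 place. The difference between the tables is called shared reads here, without knowing for each read which of these cases applies. Of all reads in the mitochondrial rows, 2.55% were shared, from 1.37% in line 19-4 to 3.55% in line 3. Sharing was concentrated in a few rows: 33 rows shared at least 1 read, 7 shared over 20% of their reads and 3 over 50%. Mt-co1, AY172581.2, AY172581.19 and AY172581.21 shared none.

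AY172581.13 (ENSRNOG00000031780) shared most, 476 of 533 reads over the 6 libraries, or 89.3%, with 76.3% to 98.6% in single libraries. AY172581.3 (ENSRNOG00000029171) shared 72.2% and Mt-atp8 60.2% of their reads. Most reads of these 3 rows in the main table were thus ambiguous. No other mitochondrial row, and no sum over a pair of them, matched their shared reads in every library. Partners among other genes and larger sums were not searched. AY172581.24 shared 0.889%, so its high level did not depend on the counting option.

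Some partners could be read from the counts. Mt-nd6 and AY172581.20 (ENSRNOG00000032997) shared the same number of reads in every library, which was 13, 9 and 13 in Control lines 5-9, 2 and 16 and 9, 5 and 2 in PWS lines 3, 19-1 and 19-4. No other gene of the 32883 had this set of numbers. AY172581.18 and AY172581.22 (ENSRNOG00000033932) likewise both shared 45, 19 and 33 reads in the Control and 65, 36 and 17 in the PWS lines. In each library the shared reads of Mt-nd2 equalled the sum of those of AY172581.15 and AY172581.6, as in line 3 with 233 against 229 and 4. The part of AY172581.6 rested on 6 reads over all libraries, with 0 in each Control line. The tables hold no positions, so where on the genome these reads lie was not examined. For AY172581.7 with AY172581.10 and for Mt-cyb with AY172581.8 the numbers matched too, but rested on 4 and 6 reads.

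**Figure D5:**
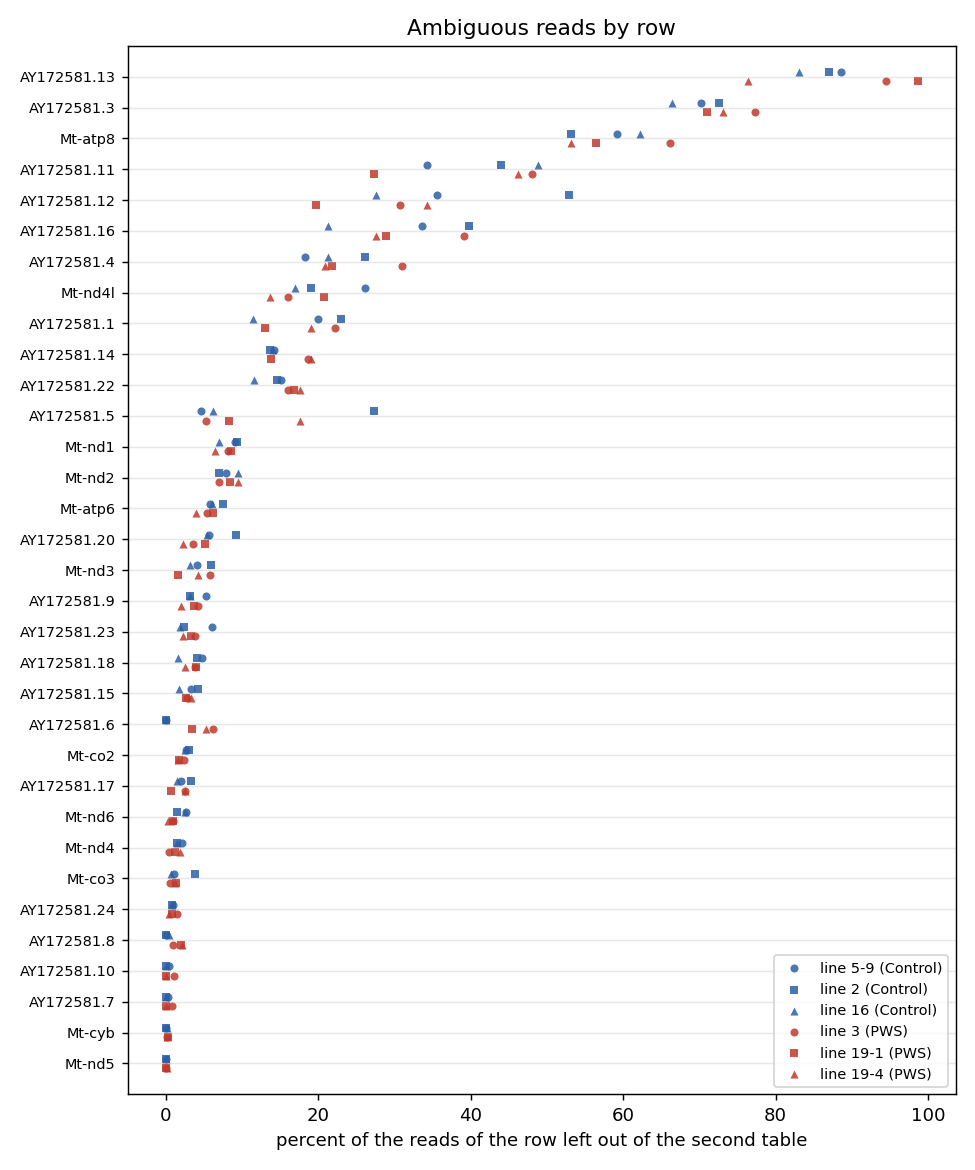
Percent of the reads of a row that the second table leaves out as ambiguous (horizontal axis) in each library, for the 33 rows that share any (vertical axis), with Control lines in blue and PWS lines in red. AY172581.13, AY172581.3 and Mt-atp8 shared over 50% of their reads, and blue and red points lay among each other in the upper rows.

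From the table without shared reads limma called none of the 37 rows, where 1.33% of the 4141 genes tested were called, and 32 rows had a log2 fold change below 0. Single rows moved with the table. AY172581.13 went from -0.40 to -1.34, the largest fall there, and had 16.7, 7.85 and 13.1 normalized reads left in Control lines 5-9, 2 and 16 and 4.16, 1.05 and 11.9 in PWS lines 3, 19-1 and 19-4. AY172581.12 went from -0.26 to -0.02 and AY172581.3 from -0.23 to -0.43. The mitochondrial share in that table was 0.949% ± 0.0780 in Control and 1.07% ± 0.306 in PWS lines (SD, n = 3 each).

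Nuclear genes of the same pathways were covered thinly. Of 88 nuclear genes for subunits of the respiratory complexes and ATP synthase, 24 reached a mean of 5 normalized reads, and limma called none in either direction. The median log2 fold change of these 24 was -0.18, and none had an unadjusted p under 0.05. Ndufs7, a complex I subunit, was the strongest, with 532, 682 and 480 normalized reads in Control lines 5-9, 2 and 16, against 339, 590 and 421 in PWS lines 3, 19-1 and 19-4. Its groups overlapped, and its log2 fold change was -0.35 ± 0.28 (SE).

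Of 31 genes listed as machinery that transcribes, cuts, modifies and degrades mitochondrial RNA, 9 were tested and none was called. Twnk, among the 9, encodes a helicase of mitochondrial DNA rather than a protein that acts on RNA. The median log2 fold change of the 9 was 0.46, with values from -1.16 for Gtpbp3 to 0.68 for Pnpt1, and the strongest had a mean of only 9.01 normalized reads. Summed over the whole list, the level was 107, 124 and 103 normalized reads in Control and 107, 105 and 123 in PWS lines, so the groups overlapped. Elac2, the nuclease that cuts transfer RNA precursors at their 3′ side, had 5.91, 13.1 and 7.72 normalized reads in Control and 8.91, 7.35 and 9.23 in PWS lines. Gtpbp3, an enzyme of mitochondrial transfer RNA modification, had 8.86, 10.5 and 5.40 in Control and 5.35, 0 and 9.23 in PWS lines. Pnpt1, a subunit of the mitochondrial RNA-degrading complex, had 4.92, 5.23 and 2.31 in Control and 5.35, 11.6 and 5.27 in PWS lines. These are fragment counts near the filter and say little about the messenger RNAs themselves.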

How the data were processed

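Small RNA libraries were sequenced from 6 clonal INS-1 lines (1 each). Per the methods and the submitters' processing notes, the authors collapsed duplicates with UMI-tools 1.0.0, trimmed adapters with Cutadapt 1.18, aligned with Bowtie2 2.3.4.2 to rat Rnor_6.0 with custom annotation and counted genes with HTSeq 0.11.2. featureCounts is also listed, with no role given. They deposited 2 tables, with ambiguous reads given to every gene (the main table here) or to none. The per-library values are a signal: counts the authors divided by DESeq2 size factors. All values (100% within 0.001) were whole multiples of the smallest value of their column, which gave back the reads. The deposited log2 fold changes, their standard errors and p-values are the authors' own comparison and were not used.

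Rows were matched by symbol. The RefSeq table (GRCr8) served for biotypes only and held 0 of the 37 symbols. limma-trend (limma 3.58.1, R 4.3.3) was fitted to log2(normalized reads + 1) over all genes with a mean of at least 5, with genotype as the sole term, Benjamini-Hochberg adjustment over all genes tested and a call at 0.1. It was tested on simulated data. edgeR 4.0.16 and DESeq2 1.42.0 on the recovered reads were alternatives, as were other pseudocounts, filters and scalings, the second table, a threshold of 0.05, a replicate block, averaged subclones and leaving out each line. Sums and shares are descriptions without a test. The text names the 10 rows with the highest mean, called rows, the 3 lowest and 3 highest fold changes, and rows with shared reads, the last group mostly by counts. Mt-nd4, Mt-nd4l, Mt-nd6 and the rows without overlap between groups were picked out after their values were seen. Members and lists were chosen with earlier results of these data known. Nothing says that lines were cultured in repeat, so p-values measure the spread between single libraries of lines. Poisson intervals cover counting error only.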

Additional observations from a re-analysis of the deposited data

How the results depend on the processing

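No mitochondrial row was called by limma, edgeR or DESeq2 in the main test or in any of the 19 alternatives, and the number of rows with an unadjusted p under 0.05 ranged from 0 to 4. With the replicate number as a block the count of called rows was 0 and the lowest adjusted p was 0.691, within a range of 0.413 (without line 3) to 1.00 (DESeq2) over the alternatives. Whether the replicate numbers pair the lines cannot be decided from these values, since lines of unlike number were not compared. Lines of the same number had correlations of 0.414, 0.218 and -0.0574 between their deviations from the group means over 1087 genes. The block moved the calls over all genes from 55 to 56. With single lines left out, the median log2 fold change over the 37 rows lay between -0.39 (without line 3) and -0.14 (without line 19-4), and it was -0.14 with lines 19-1 and 19-4 averaged. The difference in mitochondrial share then lay between -0.0535 and 0.212 percentage points, negative only without line 19-4. It was 1.09 percentage points when miRNA reads were left out of the total, which shrinks the total by construction.

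Signs turned in 12 rows, with main values between -0.23 and 0.10. Upper-quartile scaling put Mt-co2 at -0.019 and Mt-atp6 at -0.0033 (log2), and edgeR put Mt-cyb at 0.0027. With the subclones averaged AY172581.24 was at -0.0037, Mt-nd5 at 0.0054 and Mt-cyb at 0.029. Over the fits without single lines, the log2 fold change spanned -0.18 to 0.35 for AY172581.24, -0.53 to 0.22 for AY172581.15, -0.19 to 0.046 for Mt-co1, -0.098 to 0.20 for Mt-co2, -0.18 to 0.033 for Mt-nd5, -0.17 to 0.094 for Mt-cyb, -0.40 to 0.33 for AY172581.18, -0.10 to 0.29 for AY172581.21, -0.45 to 0.019 for AY172581.3, -0.25 to 0.011 for AY172581.2, -0.072 to 0.11 for Mt-atp6 and -0.41 to 0.067 for AY172581.22.
None of these rows was called in any alternative, and the cause of the changed signs was not tested. Depth limits the weakest rows, and 3 lines per group limit all of them.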
